A study of Mus musculus with 16 samples.

Results

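The comparison described here sets the lungs of 4 untreated Prdm11 knockout mice against those of 4 untreated wild type mice. Its members are 8 of the 16 arrays of the study, chosen by their labels (genotype Prdm11 knockout mice or wild type, treatment none). Each array carried lung RNA of a single female mouse of the strain C57BL/6N, and all 8 mice were 22 weeks old. The other 8 arrays, 4 of each genotype, came from mice aged 35 weeks that had been sensitised with ovalbumin (OVA), a protein of egg white, and then exposed to OVA aerosol. These are called challenged below. Age and challenge cannot be told apart in them, and they are used here only to estimate the spread and to read the genotype difference in other animals. The labels do not give the design of the knockout allele, the source of the knockout line or whether the wild type mice were littermates.

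Prdm11 belongs to the PRDM family, whose members carry a PR domain related to the SET domain of histone methyltransferases and act in the nucleus as regulators of transcription. Several members steer cell fate, Prdm1 in plasma cells and Prdm14 in germ cells among them. PRDM11 has been described in B-cell lymphoma as a repressor of the immediate early genes FOS and JUN. The lung is built from alveolar type 1 and type 2 cells, airway club, ciliated and goblet cells, endothelium, smooth muscle, fibroblasts and resident immune cells. Each has marker genes that a whole-lung array can follow. In such bulk RNA fewer cells of a type and less RNA per cell cannot be told apart.

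The array held 25697 probes, none of them annotated to Prdm11 (0 probes), so the knockout itself was not measurable and the genotypes rest on the labels. Of 12 lung identity genes, 11 had a probe and 9 lay above the 40th percentile of the array in all 8 untreated mice, among them the surfactant protein gene Sftpc (13.86 in wild type and 13.81 in knockout, mean log2 intensity) and the type 1 cell gene Ager (12.63 and 12.66). The exceptions were the ciliated cell factor Foxj1, above that level in 2 of 4 wild type and 4 of 4 knockout mice, and the macrophage receptor Marco, above it in 0 of 8. The 8 untreated arrays were alike in distribution, with medians of 86.1 to 86.4 intensity units. Pairs of arrays correlated at 0.977 to 0.987 within wild type, at 0.983 to 0.990 within knockout and at 0.974 to 0.989 between the genotypes, over all tested probes. The medians of these were 0.985, 0.987 and 0.984. Untreated and challenged arrays correlated at 0.684 to 0.955. The lowest of these values came from challenged wild type replicate 4, which stood apart from the other arrays.

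A probe was called where limma's adjusted p (Benjamini-Hochberg over all 17810 tested probes) was under 0.05 in a fit of all 16 arrays. By that rule 3 probes were called between untreated knockout and wild type, 0.0168% of those tested. Lrrc57 and Rmdn3 fell in the knockout (2 probes lower, 0.0112%), and Tmem87a rose (1 probe higher, 0.00561%). All 3 genes lie on chromosome 2, the chromosome that carries Prdm11. Lrrc57 encodes a protein of leucine-rich repeats, Rmdn3 a protein of the outer mitochondrial membrane that tethers mitochondria to the endoplasmic reticulum, and Tmem87a a membrane protein of the Golgi apparatus. Challenged mice of the same genotype labels showed the opposite: challenged mice labelled wild type had the lower Lrrc57 and Rmdn3 and the higher Tmem87a. Directions below are those of the labels, for untreated mice unless stated otherwise.

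The 250 bases upstream of the transcription start of these genes are shown because they are the sequences next to the 3 called differences. They were taken from RefSeq (GRCm38.p6) and are written in the direction of transcription, with the GC box in capitals. For Lrrc57, at chr2:120609509-120609758 on the minus strand, the first of 3 starts in the table was used. Tmem87a lies at chr2:120404117-120404366 and Rmdn3 at chr2:119157035-119157284, both on the minus strand.
Lrrc57: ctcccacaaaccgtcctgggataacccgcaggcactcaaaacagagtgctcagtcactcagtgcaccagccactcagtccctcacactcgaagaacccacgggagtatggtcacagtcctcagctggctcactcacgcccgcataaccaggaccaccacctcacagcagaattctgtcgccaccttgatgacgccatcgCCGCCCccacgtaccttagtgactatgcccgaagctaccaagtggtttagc
Tmem87a: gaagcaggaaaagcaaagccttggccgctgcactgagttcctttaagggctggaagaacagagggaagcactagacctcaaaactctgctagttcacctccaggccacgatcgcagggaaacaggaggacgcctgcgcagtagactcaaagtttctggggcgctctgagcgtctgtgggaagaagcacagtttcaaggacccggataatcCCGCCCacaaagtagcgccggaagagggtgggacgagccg
Rmdn3: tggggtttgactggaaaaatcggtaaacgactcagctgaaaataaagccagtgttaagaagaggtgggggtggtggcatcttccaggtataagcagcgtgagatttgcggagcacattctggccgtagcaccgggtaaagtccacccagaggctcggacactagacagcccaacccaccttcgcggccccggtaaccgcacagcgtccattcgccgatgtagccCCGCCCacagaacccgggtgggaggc
Each stretch held 1 GC box (GGGCGG or CCGCCC, both strands). Of the 32851 RefSeq promoter windows of that length, 32.7% held at least 1. None held the AP-1 motif TGANTCA (0 sites), the motif of Fos and Jun dimers, which 6.75% of the windows hold. None held CCAAT or ATTGG (0 sites), found in 33.8% of the windows. These matches describe letters only.

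Lrrc57 (probe ILMN_2898944) had log2 intensities of 7.72, 7.77, 7.82 and 7.77 in the wild type mice and 6.39, 6.58, 6.45 and 6.53 in the knockout mice. Every knockout mouse lay below every wild type mouse, by more than 1 log2 unit. The means were 7.77 ± 0.043 (SD, n = 4) and 6.49 ± 0.084 (SD, n = 4). The difference was -1.28 ± 0.126 (SE, 95% interval -1.55 to -1.01), a 2.43-fold lower level in the knockout, with a limma adjusted p of 0.000451. In the challenged mice the values were 6.68, 6.41, 6.89 and 6.40 in wild type and 7.48, 7.33, 7.01 and 7.48 in knockout. The challenged groups did not overlap either (34.4% of probes in those mice), but the knockout was the higher, by 0.73 (adjusted p = 0.000737). The genotype difference changed by 2.01 ± 0.178 (SE) between the sets of mice, with an adjusted p of 0.000104 for the interaction.

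Rmdn3 (probe ILMN_3071764) had values of 8.28, 8.22, 7.93 and 8.20 in wild type and 6.94, 7.13, 6.95 and 7.09 in knockout. The groups were again apart. The means were 8.16 ± 0.156 and 7.03 ± 0.097 (SD, n = 4 each), a difference of -1.13 ± 0.162 (SE, 95% interval -1.48 to -0.79), or 2.19-fold, with an adjusted p of 0.0318. A second Rmdn3 probe, ILMN_3150536, went from 7.14 ± 0.10 to 6.83 ± 0.115, a difference of -0.32 ± 0.140 (SE) that did not pass the test (adjusted p = 1, unadjusted p = 0.0381). So the probes shared their sign and differed in size. In the challenged mice the called probe stood at 6.80, 7.60, 7.71 and 7.34 in wild type and at 7.97, 7.93, 7.65 and 7.94 in knockout, a difference of 0.51 (adjusted p = 0.0201). These groups overlapped by 1 mouse of each genotype, and the interaction was 1.64 ± 0.230 (SE, adjusted p = 0.00686).

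Tmem87a (probe ILMN_2969172) had the largest difference of any tested probe. Its values were 6.85, 6.86, 7.01 and 7.18 in wild type and 8.59, 8.45, 8.43 and 8.67 in knockout, so that all 4 knockout mice were the higher by more than 1 log2 unit. The means were 6.98 ± 0.155 and 8.53 ± 0.116 (SD, n = 4 each), a difference of 1.56 ± 0.233 (SE, 95% interval 1.06 to 2.05), or 2.94-fold, with an adjusted p of 0.0357. Challenged wild type mice stood at 8.31, 7.26, 7.72 and 8.08 and challenged knockout mice at 6.86, 6.71, 7.84 and 6.85. There 3 of 4 knockout mice were at the level of untreated wild type, and knockout replicate 3 was not; the difference was -0.78 (adjusted p = 0.0152) and the interaction -2.34 ± 0.330 (SE, adjusted p = 0.00686). For all 3 probes the mean of the untreated knockout was nearer to the mean of the challenged wild type than to that of the challenged knockout. The background rates are 44.2% of probes called for genotype in the challenged mice and 9.33% for the interaction, which shares the untreated arrays with the first comparison. Other genes described below, Pcna and Pym1 among them, had the same direction in both sets of mice, and were named after their values were seen. The cause of the switch of direction of the 3 probes was not tested. An exchange of the genotype labels in either set of mice would turn the sign of every genotype difference in that set. Without a Prdm11 probe the labels could not be checked.

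**Figure D1:**
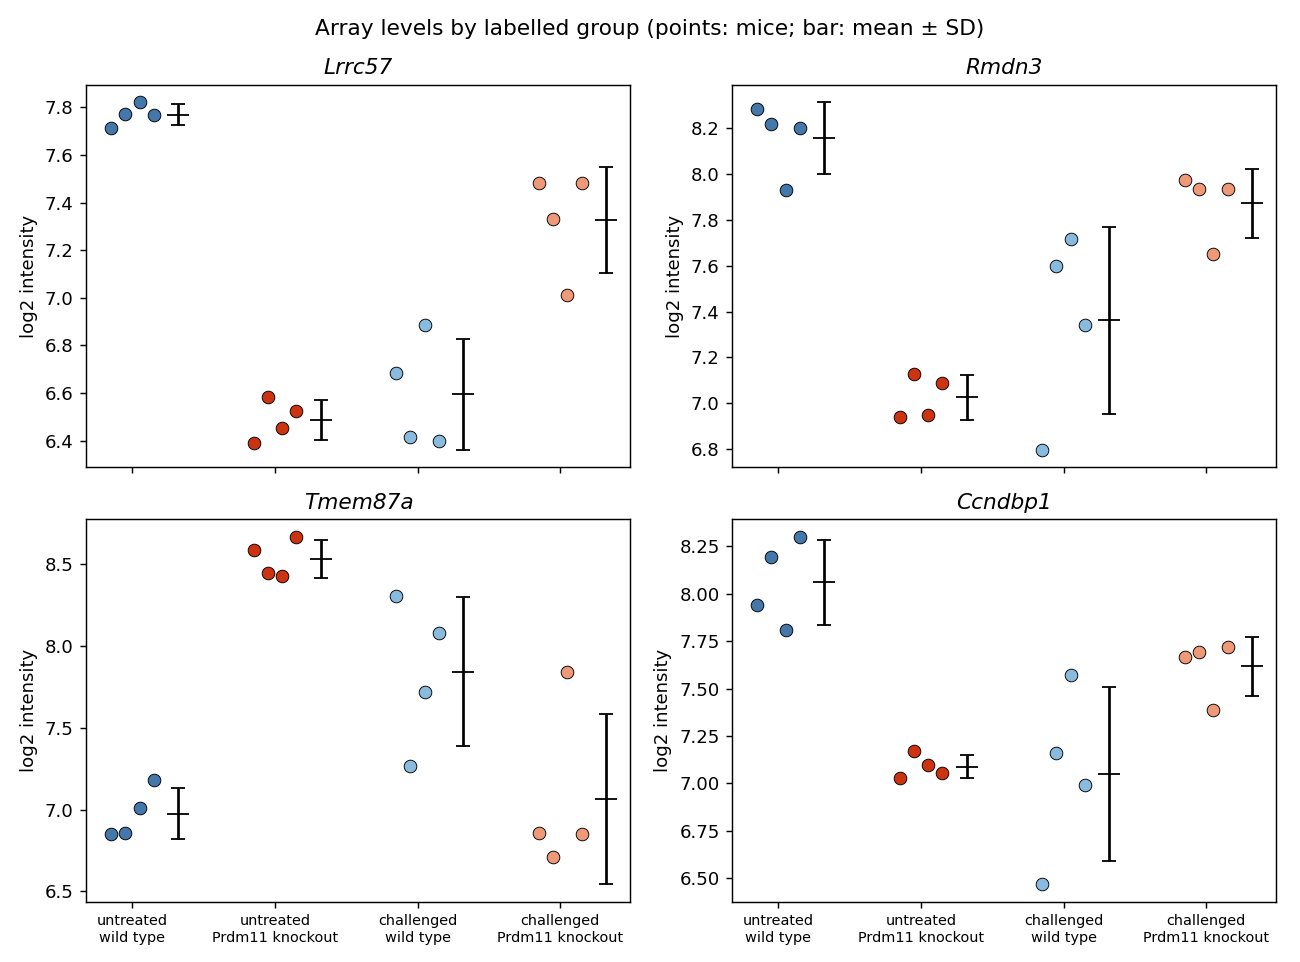
Log2 intensity of Lrrc57, Rmdn3 and Tmem87a in each mouse, by labelled group (points are mice, bars the mean ± SD, n = 4). In untreated mice the knockout points lie below the wild type points for Lrrc57 and Rmdn3 and above them for Tmem87a, and in challenged mice the order of the group means is the opposite.

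The call of Lrrc57 did not rest on 1 mouse, whereas those of Rmdn3 and Tmem87a passed the threshold of the 16-array fit only with all 8 untreated mice in it. Leaving out any of the 8 untreated mice from the 16-array fit left both above it, with adjusted p up to 0.221 for Rmdn3 and 0.225 for Tmem87a, while their differences stayed at -1.21 to -1.09 and 1.51 to 1.63. Of these 8 fits, 7 called Lrrc57 alone and the fit without knockout replicate 4 called 2, Lrrc57 and Pym1. Fitted on the 8 untreated arrays alone, all 3 were called with any 1 mouse left out (highest adjusted p 0.000706 for Rmdn3). The median SE of a probe was 0.152 in the 16-array fit and 0.10 in the 8-array fit.

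With the 8 untreated arrays fitted alone, 13 probes were called, 0.073% of those tested, and 7 of them were higher and 6 lower in the knockout. They include the 3 above. The other 10 were not called in the 16-array fit and are named here after their values were seen. Of the 13, 11 lie on chromosome 2 (84.6%), against 8.29% of the tested probes with a known chromosome. In all 13 the genotypes did not overlap, which was so for 4.26% of all tested probes, but the same arrays chose them. Their genotype difference in the challenged mice, which that fit did not use, had the opposite sign in 9 of 13. It was called with the opposite sign for 6 and with the same sign for 2, Pcna and Cox6a2. Over all tested probes the genotype differences of untreated and challenged mice correlated positively (Pearson r = 0.297).

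Of the 10, 4 were lower in the knockout and all of these are on chromosome 2. Ccndbp1, whose product binds cyclin D1, had 7.94, 8.19, 7.81 and 8.30 in wild type and 7.03, 7.17, 7.10 and 7.05 in knockout. Its difference was -0.97 ± 0.108 (SE, 8 arrays), with an adjusted p of 0.00101 in that fit and 0.292 in the 16-array fit. Golm2, a Golgi membrane protein gene, differed by -0.75, but another tested probe of Golm2, near the dim end at 6.08 and 6.13, differed by 0.05. Ehd4, an ATPase of endosomal membrane traffic, was among the bright probes, at 12.62, 12.54, 12.60 and 12.44 in wild type and 11.96, 11.94, 11.72 and 12.09 in knockout, a difference of -0.62. Cd59a, which shields cells from the complement membrane attack complex, had 9.80, 10.23, 10.21 and 10.00 in wild type and 9.36, 9.27, 9.28 and 9.41 in knockout, a difference of -0.73. In challenged mice the knockout was the higher for each of these 4, by 0.57, 0.67, 0.34 and 1.26, in the same order.

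The other 6 were higher in the knockout. Pkn3, a protein kinase of the PKC-related family, had 7.74, 7.73, 7.98 and 8.03 in wild type and 8.66, 8.87, 8.92 and 8.55 in knockout, a difference of 0.88 ± 0.109 (SE, 8 arrays, adjusted p = 0.0031). Mapkbp1, a scaffold of MAP kinase signalling, differed by 0.78 and was the 1 further call (4 in all, 0.0225%) when challenged wild type replicate 4 was left out of the 16-array fit. Crls1, the cardiolipin synthase of mitochondria, differed by 0.79 on the called probe, whereas its other tested probes differed by 0.07 and -0.05, so the gene's probes disagree. Pcna, the sliding clamp of DNA replication, had 6.74, 6.51, 6.55 and 6.29 in wild type and 7.17, 7.07, 7.08 and 7.25 in knockout, a difference of 0.62. It was higher in the challenged knockout too, by 1.08 (adjusted p = 0.000568), with 7.31 to 7.45 in knockout and 5.66 to 6.67 in wild type mice. Among the chromosome 2 calls of the 8-array fit, only Pcna also passed the test in challenged mice in the same direction.

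Off chromosome 2, Gatd3a (chromosome 10) had 8.81, 8.84, 9.13 and 8.85 in wild type and 9.52, 9.95, 9.73 and 9.79 in knockout, a difference of 0.84 (adjusted p = 0.00429 in the 8-array fit). Cox6a2 (chromosome 7), the heart and skeletal muscle form of a cytochrome c oxidase subunit, differed by 0.54, from 9.82 to 9.95 in wild type to 10.33 to 10.51 in knockout. It belongs to the skeletal muscle list, whose values are given further on. With any 1 of the 8 mice left out, Lrrc57, Rmdn3, Tmem87a, Ccndbp1, Pkn3, Gatd3a and Crls1 were called in 8 of 8 fits, Golm2 and Mapkbp1 in 6, Cd59a in 5, Cox6a2 in 4, and Ehd4 and Pcna in 2.

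**Figure D2:**
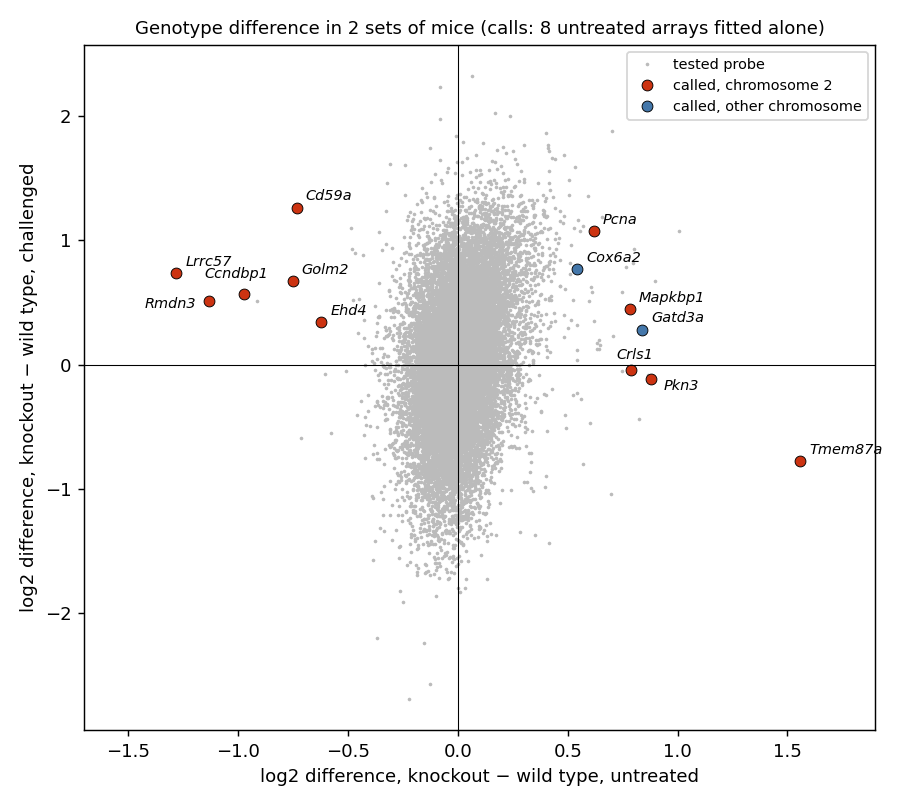
Genotype difference (log2, knockout minus wild type) in challenged mice, vertical, against that in untreated mice, horizontal, for the tested probes, with the 13 calls of the 8-array fit marked. Of those 13, 9 lie in the quadrants of opposite sign, Lrrc57, Rmdn3 and Tmem87a among them, and Pcna lies in the quadrant where both differences are positive.

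Weighting each array by its estimated quality (arrayWeights) in the 16-array fit gave 24 calls (0.135%), 17 higher and 7 lower, and 12 of them were shared with the 8-array fit. In that fit challenged wild type replicate 4 had a weight of 0.0602, the untreated arrays had 0.923 to 2.86 and the other challenged arrays 0.510 to 2.07. On chromosome 2 lay 14 of the 24. The further genes, also named after their values were seen, include several regulators that were higher in the knockout. Klf2, a zinc finger factor of quiescent endothelium and lymphocytes, had 9.60, 9.91, 9.75 and 10.68 in wild type and 10.64, 10.65, 11.17 and 10.78 in knockout, and wild type replicate 4 lay inside the knockout range. Its difference was 0.82, with adjusted p of 0.018 with weights and 0.252 in the 8-array fit. Klf4, a related factor, differed by 0.64 on the called probe, which stood at 6.44, 6.35, 6.00 and 6.2 in wild type and at 6.92, 6.87, 7.09 and 6.68 in knockout. A brighter Klf4 probe, at 9.30 ± 0.441 and 9.86 ± 0.191 (SD, n = 4 each), differed by 0.56 and was not called. Per1, a repressor of the circadian clock that also responds to glucocorticoids, had 8.04, 8.32, 8.07 and 8.61 in wild type and 8.65, 8.94, 8.99 and 9.28 in knockout, a difference of 0.71. Csrnp1, a nuclear protein gene induced by Axin, differed by 0.87.

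Pym1 (chromosome 10), which takes apart exon junction complexes on translated mRNA, was the further gene with groups apart and means at least 2-fold apart (4 probes met that rule, 0.0225%). Its values were 5.87, 5.57, 5.96 and 5.86 in wild type and 7.19, 7.11, 6.90 and 6.09 in knockout, so that all wild type mice and knockout replicate 4 were below the 40th percentile of the array (6.24 to 6.25). The difference of 1.01 had an adjusted p of 0.00487 with weights and 0.0834 in the 8-array fit. In challenged mice Pym1 was 5.48 to 5.99 in wild type and 6.67 to 7.01 in knockout, a difference of 1.08 (adjusted p = 0.00111). The direction of Pym1 was thus the same in both sets of mice. So it was for Serf2 on chromosome 2, which differed by 0.75 in untreated and by 0.59 in challenged mice (adjusted p = 0.0097 in the latter). Tmem198b, the nuclear envelope gene Sun2 and the Golgi matrix gene Golga2 (chromosome 2) differed by 0.52, 0.61 and 0.80 in untreated mice. In challenged mice they differed by 0.36, 0.59 and 0.82, and wild type replicate 4 had the lowest value of each there. Tatdn2 differed by 0.75 in untreated and by -0.05 in challenged mice, and Erdr1 by 0.60 and -0.47. Plcb2, a phospholipase C of blood cells, also on chromosome 2, differed by -0.63 in untreated and by 0.77 in challenged mice.

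Along chromosome 2 the probes that leaned furthest between the genotypes were not spread evenly. In the 16-array fit an unadjusted p under 0.05 was found for 327 of all tested probes (1.84%). The 8-array fit, whose median SE was smaller, gave 1257 (7.06%). The counts of such probes below are those of the 16-array fit. On chromosome 2 they were 52 of 1379 (3.77%), and on the other chromosomes together 251 of 15258 (1.65%). When the chromosome was divided, after its values were seen, into blocks of 200 protein-coding genes in annotation order, the block with Lrrc57 held 19 such probes of 152 (12.5%), all 3 calls of the 16-array fit and 7 of the 8-array fit. The following block held 9 of 177 (5.08%), with Crls1 and Pcna. The block with Prdm11 held 5 of 157 (3.18%), with Cd59a, and the other blocks held 0% to 3.49%, the highest of these with Pkn3. Of the 52 chromosome 2 probes, 20 (38.5%) had the opposite sign in challenged mice, against 64 of 251 elsewhere (25.5%).

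The immediate neighbours of Prdm11 held no call. Lrrc57 lies 198 protein-coding genes away from it. Of the 30 protein-coding genes on either side of Prdm11, 45 were tested, and 0 were called in the 16-array fit, in the 8-array fit or with weights. An unadjusted p under 0.05 was found for 2 (1.84% of all tested probes), the epithelial transcription factor gene Elf5 (-0.38) and Ttc17 (-0.47). The genotypes did not overlap for 6 of the 45, against 4.26% of all tested probes. The interaction was called for 8 of the 45, against 9.33%. Differences ran from -0.47 to 0.27 with a median of -0.01, and the 95% interval lay within -1 to 1 for 45 of 45. The closest genes on either side, Trp53i11, a p53-inducible gene, and the synaptotagmin gene Syt13, which was near background, differed by 0.22 and 0.00. The next, the tetraspanin gene Tspan18 and the sulfotransferase gene Chst1, differed by -0.32 and -0.02. Behind them lay Cd82, another tetraspanin gene (-0.04), and Slc35c1, the GDP-fucose transporter of the Golgi apparatus (0.23).

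Around Lrrc57 more genes leaned between the genotypes. That window was centred on a gene called in these same arrays, which favours differences in it. Of the 30 genes on either side, 39 were tested. In the 16-array fit 1 was called (Tmem87a), and in the 8-array fit 5, 2 higher and 3 lower (0.0168% and 0.073% of all tested probes). An unadjusted p under 0.05 was found for 11 (1.84% of all tested probes), 6 higher and 5 lower. Of these 11, 6 had the opposite sign in challenged mice. The genotypes did not overlap for 10 of the 39, against 4.26% of all tested probes. The interaction was called for 9 of the 39, against 9.33%. Of the genes next to Lrrc57, Snap23, a SNARE protein of membrane fusion, had 9.47 ± 0.167 in wild type and 8.87 ± 0.216 in knockout (SD, n = 4 each), a difference of -0.61 ± 0.209 (SE) that did not pass the test (adjusted p = 1). Haus2, on the other side and part of the augmin complex of the spindle, was 6.24 and 6.28, a difference of 0.04. Higher and lower genes lay among each other: between Mapkbp1 and Tmem87a, whose knockout levels were the higher, lies Ehd4, whose knockout level was the lower in the 8-array fit. Other members of the neighbourhood differed little, among them the p53-binding protein gene Trp53bp1 (8.56 and 8.50) and the ubiquitin ligase gene Ubr1 (8.55 and 8.41). The median absolute difference was 0.140 around Lrrc57, 0.088 around Prdm11 and 0.079 over all tested probes.

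**Figure D3:**
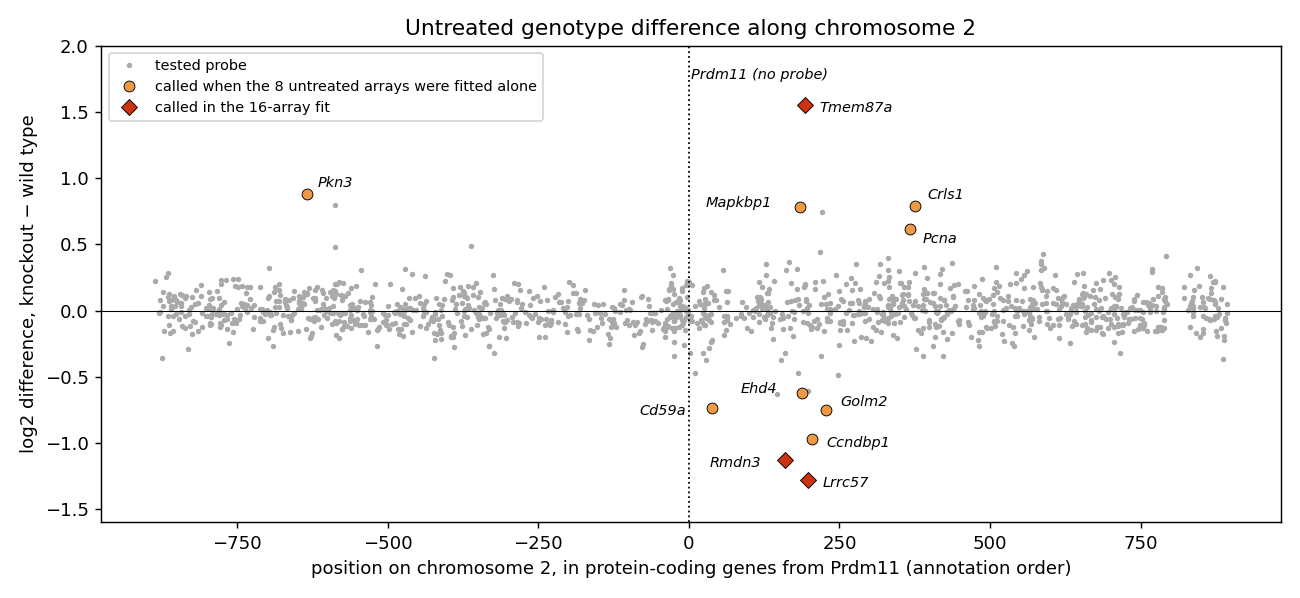
Genotype difference in untreated mice (log2, knockout minus wild type) of the tested probes of chromosome 2 in the order of its protein-coding genes, counted from Prdm11. The large differences in either direction gather near Lrrc57, 198 genes from Prdm11, and the genes next to Prdm11 lie between -0.47 and 0.27.

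Over the whole array the untreated lungs differed little. The log2 difference of the 17810 tested probes had a median of -0.00, a 5th percentile of -0.19 and a 95th percentile of 0.22. Only 40 probes (0.225%) differed by at least 1.5-fold and 4 by at least 2-fold. The median absolute difference of 0.079 compares with 0.370 for the same contrast in challenged mice, where 7879 probes were called. A missed threshold does not show equality, so the 95% intervals are given as well. They lay within -1 to 1, that is within 2-fold either way, for 17447 probes (98%), and within -0.5 to 0.5 for 11598 (65.1%). In the 8-array fit these shares were 99.8% and 94.3%.

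Lists of marker and pathway genes were used to describe the baseline lung programme. The 37 lists held 598 distinct tested genes, and 0 of them were called in the 16-array fit. In the 8-array fit 2 were called (Pcna and Cox6a2), and with weights 3 (Pcna, Klf2 and Per1). An unadjusted p under 0.05 was found for 11 (1.84%), the share found over all tested probes. The interval lay within 2-fold for 508 (84.9%) in the 16-array fit and for 591 (98.8%) in the 8-array fit. The median difference of a list was within -0.1 to 0.1 for 30 of the 37.

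Genes of the alveolar epithelium held no call. Among type 1 cell genes, Ager, the receptor for advanced glycation end products, was 12.63 ± 0.094 in wild type and 12.66 ± 0.18 in knockout (SD, n = 4 each). Pdpn, podoplanin, differed by 0.18 and the water channel gene Aqp5 by 0.27, with intervals of -0.22 to 0.58 and -0.34 to 0.87. The median of the 15 tested members was 0.03, and 14 of the 15 were bounded, meaning that the interval lay within 2-fold either way. Among 18 type 2 cell and surfactant genes the median was -0.12, with 15 negative and 3 positive, and 14 were bounded. Sftpc, which encodes surfactant protein C, was 13.86 ± 0.0577 and 13.81 ± 0.0797. Sftpb, for surfactant protein B, had 11.25, 11.41, 11.31 and 11.46 in wild type and 10.99, 11.09, 10.91 and 11.04 in knockout, so that the groups did not overlap. Its difference of -0.35 had an interval of -1.09 to 0.39 in the 16-array fit and of -0.54 to -0.17 in the 8-array fit, and was called in neither (adjusted p = 1 and 0.307). Sftpa1 differed by -0.10. The mean level of the list was 10.51 to 10.63 in wild type and 10.41 to 10.51 in knockout mice, so that the groups only touched.

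Airway genes were looser in their bounds in the 16-array fit, whose spread also draws on the challenged mice. The club cell secretoglobin gene Scgb1a1 was 15.48 in 4 wild type and 3 knockout mice and 15.07 in knockout replicate 1. At that height it held the top rank of the array, which leaves no room for a higher value, whereas a lower one could be seen. The difference was -0.10 (interval -0.70 to 0.49). Scgb3a1 differed by -0.22 (interval -0.93 to 0.49), and Cyp2f2, a cytochrome P450 of club cells, by -0.13 (interval -1.2 to 0.93). In the 8-array fit the Cyp2f2 interval was -0.32 to 0.05. Of the 14 club cell genes, whose median was -0.13, 7 were bounded in the 16-array fit and 14 in the 8-array fit. Of 17 motile cilium genes 16 were bounded (median -0.07), but the axonemal dynein genes Dnah5 (6.18 and 6.11) and Dnah11 (6.24 and 6.26) were near background, so that little change could have been seen there. Goblet cell genes differed between mice more than between genotypes. The chloride channel regulator gene Clca1 was at 10.27 in wild type replicate 3 and 10.22 in knockout replicate 3, against 6.88 to 7.22 and 6.96 to 7.02 in the others of each group. The mucin gene Muc5ac was near background, at 5.86 and 5.95.

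Vessel and supporting cell genes showed no call. Among 27 endothelial genes 23 were bounded, with a median of -0.03. Pecam1, an adhesion molecule of endothelial junctions, was 10.26 ± 0.10 and 10.38 ± 0.0913, and Cdh5, VE-cadherin, 9.77 ± 0.266 and 9.47 ± 0.143 (interval of the difference -0.77 to 0.17). The lymphatic hyaluronan receptor gene Lyve1 differed by -0.14. Of 17 smooth muscle and pericyte genes 15 were bounded (median -0.06). Acta2, smooth muscle actin, was 13.14 and 13.08, and Myh11, its myosin heavy chain, differed by -0.33 (interval -1.31 to 0.66). Of 28 fibroblast and collagen genes 25 were bounded (median 0.04). Col1a1 differed by 0.00, Col1a2 by 0.42 (interval -0.03 to 0.87) and Col3a1 by 0.27. For Col1a2 the groups did not overlap (4.26% of all tested probes). Its 8-array interval was 0.14 to 0.70, and it was not called in that fit. All 7 tested mesothelial genes were bounded, with Msln, mesothelin, at 8.25 and 8.20.

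Genes of resident and circulating immune cells had medians from -0.17 to 0.05. Alveolar macrophage genes had a median of -0.03 over 14 tested, with 12 bounded. Car4, a carbonic anhydrase that lung capillaries express too, differed by 0.42 (interval -0.15 to 0.98) and Chil3, a chitinase-like protein of alveolar macrophages, by -0.22. The groups did not overlap for Car4 (4.26% of all tested probes). Its 8-array interval was 0.20 to 0.64, and it was not called in that fit. Of 18 monocyte and interstitial macrophage genes 18 were bounded (median -0.00), with the complement gene C1qb at 8.06 and 8.05. The neutrophil calprotectin genes S100a8 and S100a9 differed by -0.33 (interval -1.21 to 0.56) and -0.13. The eosinophil granule genes Prg2 and Epx were near background in both genotypes (6.50 and 6.55, 6.38 and 6.34). The mast cell protease gene Cpa3 was 6.90 and 6.83. Of 18 T cell genes 15 were bounded (median -0.03), with Cd3e, a chain of the T cell receptor complex, at 7.03 and 6.92. Among 16 genes of B and plasma cells 12 were bounded (median 0.05), with the B cell receptor gene Cd79a at 7.17 and 7.25. Of 17 MHC class II and dendritic cell genes 16 were bounded, and the invariant chain gene Cd74 was 12.29 and 12.20.

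The mean level of a list overlapped between the genotypes in 35 of the 37 lists. The exceptions were small. Natural killer and cytotoxic genes had a list mean of 7.38 to 7.47 in wild type and 7.25 to 7.35 in knockout mice, with a median difference of -0.17 over 7 tested genes, 6 of them negative. Klrd1, a natural killer cell receptor, was 7.77 ± 0.0701 and 7.58 ± 0.0599, Ncr1 differed by -0.23 near background, and the perforin gene Prf1 was 10.19 and 10.18. None of the 7 passed the test (0 called, 0 with an unadjusted p under 0.05). Cell cycle genes had a list mean of 7.06 to 7.15 in wild type and 7.15 to 7.27 in knockout mice, with a median of 0.06 over 29 tested genes. Of the 29, 22 were positive and only Pcna had an unadjusted p under 0.05. The mitotic kinase genes Cdk1 (6.97 and 7.0) and Aurka (7.21 and 7.20) differed by 0.03 and -0.01. Top2a, the topoisomerase of dividing cells, was near background (5.98 and 5.85).

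Housekeeping and stress programmes held no call. All 26 tested interferon-stimulated genes were within 2-fold (median -0.02), among them Ifit2 (7.95 and 7.93) and Ifit3 (-0.26), and the ubiquitin-like gene Isg15 differed by 0.44, from a level near background. All 32 antioxidant and xenobiotic genes (median -0.05), with Hmox1, haem oxygenase, at 6.57 and 6.52, and all 20 unfolded protein response genes (median -0.04), with the chaperone gene Hspa5 at 7.48 and 7.51, were bounded as well. Within the narrower limits of -0.5 to 0.5 lay 13, 16 and 10 of these 3 lists, smaller shares than the 65.1% of all tested probes. Of 53 cytosolic ribosomal protein genes 52 were bounded, 37 of them within the narrower limits, with a median of 0.07, and Rpl5 was 12.86 and 12.84. Of 15 clock genes 14 were bounded, 4 of them narrowly, with Arntl and Clock, the activators of the clock, differing by -0.18 and -0.12. Per1 was the clock gene with the largest difference. Glucocorticoid-responsive genes had a median of 0.15 over 14, of which 10 were bounded, and Tsc22d3, a mediator of steroid action, differed by 0.26 and Fkbp5, which holds the steroid receptor in check, by -0.36, so the members did not share a sign.

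**Figure D4:**
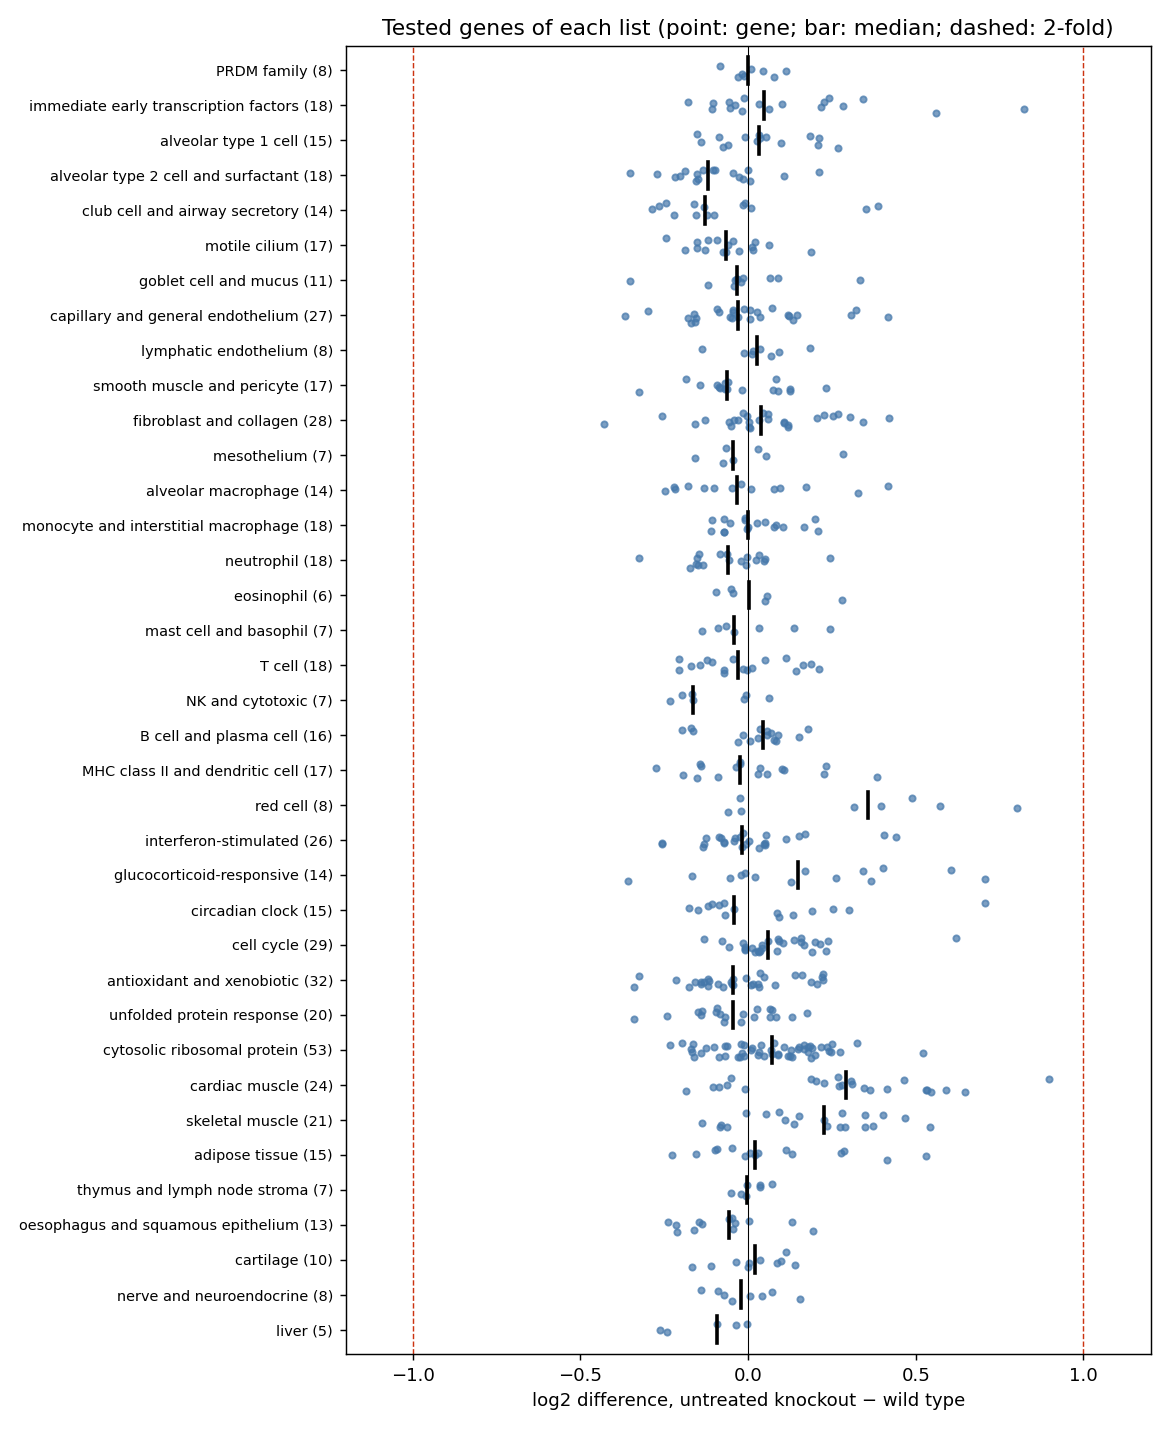
Log2 difference (untreated knockout minus wild type) of the tested genes in each list, with each point a gene, the bar the median of the list and dashed lines at 2-fold. No gene of a list passes 2-fold, the medians of the red cell (0.36), cardiac muscle (0.29) and skeletal muscle (0.23) lists lie furthest from 0, and 30 of the 37 medians are within -0.1 to 0.1.

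The lists that leaned furthest were those of red cells and of cardiac and skeletal muscle. The source of this RNA in the lung samples was not tested. Of 8 tested red cell genes 5 were positive, with a median of 0.36 against -0.00 over all tested probes. Alas2, the first enzyme of haem synthesis in red cells, was 10.22 ± 0.379 in wild type and 10.80 ± 0.266 in knockout (SD, n = 4 each), and Slc4a1, the anion exchanger of the red cell membrane, 7.61 and 8.10. The globin genes Hba-a1, Hbb-b2 and Hbb-bt differed by 0.32, 0.80 and 0.40, and their near-identical copies may share signal. None of the 8 was called, and 4 had an unadjusted p under 0.05, against 1.84% of all tested probes. Genes of a single cell type can move together, so these 4 are not separate observations. The list mean was 8.64 to 8.95 in wild type and 8.82 to 9.22 in knockout mice. Cardiac muscle genes, which lung samples carry with the pulmonary veins and any adhering heart, had a median of 0.29 over 24, of which 9 were bounded. The list mean was 7.91 to 8.61 in wild type and 8.43 to 8.78 in knockout mice, with the atrial light chain gene Myl4 at 11.34 ± 0.521 and 11.88 ± 0.361, and the ventricular light chain gene Myl2 below the 40th percentile in 8 of 8 mice. Skeletal muscle genes had a median of 0.23 over 21, of which 5 were bounded in the 16-array fit and 21 in the 8-array fit. Their list mean was 8.93 to 9.62 in wild type and 9.29 to 9.95 in knockout mice. Acta1, skeletal actin, was at 12.71 ± 0.599 and 12.85 ± 0.50. The part of muscle in the difference of Cox6a2 was not tested.

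Among other tissues that can come along no gene was called. Squamous keratin genes of the oesophagus varied between mice, with Krt13 at 9.73 ± 0.798 and 9.52 ± 0.649 and Krt4 at 8.63 ± 0.822 and 8.59 ± 0.58, and a list median of -0.06 (3 positive and 10 negative). The adipose hormone gene Adipoq was 8.99 ± 0.707 and 9.28 ± 0.377, and the adipose list had a median of 0.02. All 5 tested liver genes were negative, with a median of -0.09 and a list mean of 6.42 to 6.67 in wild type and 6.28 to 6.50 in knockout mice. Alb, albumin, was near background, at 6.12 and 6.03, and the plasma protein genes Apoa1 and Ttr differed by -0.04 and -0.00. Chemosensory receptor genes, which are rarely transcribed outside sensory tissue and gauge the background here, had 640 tested probes, 0 of them called and 4 with an unadjusted p under 0.05. Their median per array was 6.04 to 6.13 in wild type and 6.02 to 6.07 in knockout mice.

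The relatives of Prdm11 and the genes it has been described to repress showed no called difference. Of the 17 PRDM family genes listed, Prdm11 among them, 11 had a probe and 8 were tested, and all 8 were bounded within 2-fold, with differences from -0.09 to 0.11. Prdm1, the master regulator of plasma cells, was 6.58 ± 0.153 and 6.55 ± 0.144, Mecom, a regulator of blood stem cells, 6.64 and 6.63, Prdm4 8.79 and 8.70, and Zfpm1, the cofactor of GATA1, 8.78 and 8.89. Fos was 8.87 ± 0.403 in wild type and 8.69 ± 0.277 in knockout (SD, n = 4 each), a difference of -0.18 with an interval of -0.68 to 0.32. Jun was 8.64 ± 0.339 and 8.63 ± 0.164, a difference of -0.02 (interval -0.69 to 0.66). Fosb was near background in both, at 6.01 and 6.23. These 16-array intervals reach past 1.5-fold downwards for Fos and in both directions for Jun. In the 8-array fit the intervals were -0.55 to 0.19 for Fos and -0.32 to 0.29 for Jun, within 1.5-fold either way. Of the 18 tested immediate early genes 16 were bounded, with a median of 0.05, and the widest difference was that of Klf2, given above.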

How the data were processed

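Illumina bead arrays measured lung RNA, with a separate array for each of 16 mice. The deposited values are linear probe intensities, and the submitters' processing notes name GenomeStudio 2011.1; the normalization is not given in the sources used here. The sorted values of the arrays differed by at most 4.9 units at any rank, so no further normalization was applied, and true differences in total RNA output could not be seen. Intensities were raised to a floor of 16 (1123 of 411152 values) and taken to log2. Probes above the array's 40th percentile on 4 or more arrays were kept, which left 17810 for testing. Of the 25697 probes, 23978 had 1 gene symbol and 1719 were unnamed; RefSeq gave chromosomes and gene order. A mean per group was fitted to all 16 arrays with limma 3.58.1 (R 4.3.3, lmFit and eBayes), and the script was tested on simulated data. Adjusted p are Benjamini-Hochberg over all tested probes, and intervals are at 95%. With 4 mice a group, an exact permutation test cannot go below p = 0.0286.

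Named genes are called probes with groups apart (up to 15 each way), and for each list the first 3 tested members where none was called; other genes are given after their values were seen. Of several probes of a list gene, the one with the highest mean was used. The comparison, members and lists were chosen with earlier results of these data known. Alternatives were another floor, filter, normalization, variance model, array weights, probe choice, call rule, replicate block, the 8 arrays alone and leaving out each mouse.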

Additional observations from a re-analysis of the deposited data

Results flagged for a closer look

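In 20 of the 135 named genes the genotype difference itself differed between challenged and untreated mice by the interaction term of the 16-array fit (limma, adjusted p under 0.05), against 9.33% of all tested probes. All of these comparisons share the untreated arrays with the report. The value given for each is the knockout minus wild type difference in challenged mice minus that in untreated mice, in log2. Among genes called in untreated mice in any fit, the interaction was positive for Lrrc57 (2.01), Cd59a (1.99), Rmdn3 (1.64), Ccndbp1 (1.54), Golm2 (1.42), Plcb2 (1.40) and Ehd4 (0.96), all lower in the untreated knockout. It was negative for Tmem87a (-2.34), Erdr1 (-1.07) and Pkn3 (-0.99), all higher in the untreated knockout. Since genes with a large untreated difference were picked, a difference of this sign is favoured. Among list genes that were not called in untreated mice, it was -1.85 for Car4, -1.38 for Hbb-bt, -1.27 for Lep, the adipose hormone leptin, -1.26 for Hba-a1, -1.15 for the mast cell gene Cpa3, -0.91 for Cdk1 and -0.77 for Prdm1. It was 1.08 for the monocyte chemokine receptor gene Cx3cr1, 0.92 for Top2a and 0.77 for Il5ra, the interleukin 5 receptor of eosinophils.

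In 16 of 270 groups of 4 untreated mice (5.93%) 1 mouse stood far from the other 3, by Dixon's test at 95%, a rate near the 1 in 20 that chance gives. Wild type replicate 3 was high for Clca1 (10.27, the others at 6.88 to 7.22), Aqp5 (11.47), Gatd3a (9.13) and Tatdn2 (8.36). Knockout replicate 3 was high for Clca1 (10.22, the others at 6.96 to 7.02) and Chil3 (11.43). Wild type replicate 1 was low for the muscle genes Myl3 (9.72, the others at 10.93 to 11.05) and Myh1 (8.19), and wild type replicate 4 high for Hba-a1 (14.95). Knockout replicate 1 was low for Scgb1a1 (15.07) and high for the keratin gene Krt79 (7.14). Knockout replicate 4 was low for the endoplasmic reticulum chaperone genes Hspa5 (7.17), Hsp90b1 (12.16) and Calr (6.37) and for Top2a (5.49), and high for Chga (6.94).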

How the results depend on the processing

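The count of 3 called probes stayed at 3 or 4 with a floor of 32, quantile normalization, median centring, no filter, the stricter 60th percentile, a trended robust variance, 1 probe per gene, challenged wild type replicate 4 left out, and the rule of non-overlap with a 2-fold difference. It was 1 with cyclic loess, 24 with arrayWeights and 13 with the 8 untreated arrays alone, also where the probes were filtered on these arrays (13 of 15787, an alternative chosen after seeing the data). Leaving out each untreated mouse in turn gave 1 to 2 in the 16-array fit and 7 to 20 in the 8-array fit (wild type 1 to 4 left out: 16, 8, 19 and 20; knockout 1 to 4: 12, 7, 8 and 15). The number of called probes that were called the same way in challenged mice was 0, but 3 with arrayWeights and 0 to 1 with a mouse left out. The number with a called interaction was 3, but 1 with cyclic loess, 17 with arrayWeights and 1 with any untreated mouse left out. The cause of these moves was not tested; each fit without a mouse held fewer samples. The labels do not say whether wild type and knockout mice of the same replicate number were paired. Deviations of same-numbered mice correlated at 0.310, -0.031, 0.012 and 0.303, and those of differently numbered mice at -0.365 to 0.165. Replicates 1 and 4 thus lay above that range, and an effect shared by replicate number cannot be dismissed. With the replicate block 1 probe was called, Lrrc57, with 1 interaction, and Rmdn3 and Tmem87a had an adjusted p of 0.0876 each. Lrrc57 was called under all 20 alternatives that give it a value (-1.31 to -1.25), and Rmdn3 and Tmem87a under 10 of the 20. No direction reversed. With 4 mice a group the number of arrays limits the precision, but the median SE was larger in the 16-array fit (0.152) than in the 8-array fit (0.10).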
